A study of Mus musculus with 6 samples.

Results

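The genes described here encode the machinery of intraflagellar transport (IFT) and the BBSome, measured in the whole lung of mouse embryos that lacked *Tnrc6a*, at E18.5. The list of 37 genes was drawn up by known function and not by measured values, although earlier results of these data were known. Of these, 35 were measured, among 19938 genes with a value in all 6 lungs, and *Arl6* and *Arl13b* were not analysed here. Each gene was represented by its brightest probe set among those assigned to a single gene symbol, and none of the 35 had a second such probe set. Signals are those deposited for a whole-transcript Affymetrix mouse gene array, which the labels call log2. Because the base of the logarithm could not be verified from the values, the deposited log scale is kept throughout, each difference is that of the *Tnrc6a* null mean minus the WT mean, and no folds are derived.

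The lungs came from 3 *Tnrc6a* null embryos, homozygous for a gene trap that places β-galactosidase in the *Tnrc6a* locus, and from 3 WT embryos, all at E18.5 and on a C57Bl/6 background. The gene trap is present in every cell of the embryo from conception onward. RNA was extracted from the lung of an individual embryo for each array, so that the replicates are embryos. *Tnrc6a* encodes a partner of Argonaute proteins in miRNA-mediated regulation, and the comparison asks how its loss altered gene expression in lungs in which multiciliated cells (MCCs) were forming.

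Cilia are built and maintained by IFT, in which trains of the IFT-B and IFT-A complexes travel along the axoneme, moved towards the tip by kinesin-2 and back to the base by dynein-2. The BBSome is an adaptor that rides on these trains and carries membrane proteins out of the cilium, and small GTPases of the ARL family control its recruitment and the release of lipid-modified cargo. In the lung these genes serve both the motile cilia of airway MCCs and the single primary cilia of many other cell types.

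*Tnrc6a* itself had signals of 5.45, 5.04 and 5.40 in *Tnrc6a* null lungs, against 7.38, 7.13 and 7.18 in WT lungs, a difference of -1.93 ± 0.13 (SE), with an adjusted p of 0.00312 in limma, a linear model with a moderated estimate of spread. It was the single gene called at an adjusted p under 0.05 (Benjamini-Hochberg over all genes), or 0.00502% of those tested. Without WT replicate 3 its difference was -1.96 with an adjusted p of 0.0552 in limma, and no gene was called, 3.35% of all genes passing an unadjusted p under 0.05. Lung markers were measured in both genotypes, with *Sftpc* of alveolar type 2 cells at a mean of 11.8 in *Tnrc6a* null lungs and 11.7 in WT lungs. A pair of lungs stood apart from their groups. *Tnrc6a* null replicate 3 and WT replicate 1 correlated with each other at 0.992 over all genes, whereas the highest correlation of the first with another null lung was 0.983 and that of the second with another WT lung was 0.988. The counts and medians of the members are given below with and without these lungs.

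Many ciliary genes carry an X-box, the sequence bound by RFX transcription factors, close to their start. The members' promoters were searched for it from 250 bases before to 50 bases after the start in RefSeq sequence (GRCm38.p6). The pattern was GTTNCC followed by GGNAAC, with 0 to 3 bases between them and at most 1 mismatch over the 10 fixed letters. It is its own reverse complement and therefore covers both strands. A match was present in 7 of the 31 members that had a promoter sequence (22.6%), against 1662 of 27025 genes in all (6.15%). These matches are shown because they are a property of the genes that is independent of the arrays. Each line gives 30 bases in the direction of the gene, with the match in capitals.
Kif17: tcacggagGTTGCCCAGCAACggcgaacgc
Ift22, first match: ctgtcaggGTTTCCTGGGCTACtgcgcagc
Ift22, second match: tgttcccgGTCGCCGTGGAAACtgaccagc
Ift52: atacagtcTTTACCGGGAAACgggccagcc
Ift57, first match: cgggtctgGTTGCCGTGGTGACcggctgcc
Ift57, second match: gccctgcgGTTGCCTGGTAACggtggggac
Bbs1: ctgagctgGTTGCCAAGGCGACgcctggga
Bbs4: ctcagctgGTCGCCCGGGAAACggtcggct
Bbs7: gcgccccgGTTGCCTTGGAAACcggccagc

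The sequences lie on the plus strand at chr4:138262170-138262199 for *Kif17*, chr5:136908079-136908108 and chr5:136908109-136908138 for *Ift22*, chr2:163017338-163017367 for *Ift52*, and chr16:49699199-49699228 and chr16:49699226-49699255 for *Ift57*. On the minus strand they lie at chr19:4906605-4906634 for *Bbs1*, chr9:59353464-59353493 for *Bbs4* and chr3:36613489-36613518 for *Bbs7*. The matches of *Bbs7* and the second match of *Ift57* had 0 mismatches and began 121 and 60 bases before the start, whereas the others had 1 mismatch. Those of *Bbs1* and *Bbs4* began 1 and 23 bases after the start and the rest before it. The forkhead sequence GTAAACA, searched on either strand without mismatch, was in none of the 31 promoters and in 4.05% of all 27025. No promoter sequence was used for *Ift80*, *Ift81*, *Ift122* and *Dync2li1*. A match is a description of the letters and not of a site that is bound.

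Expression of the 35 genes differed little between *Tnrc6a* null and WT lungs. None was called at an adjusted p under 0.05, and the adjusted p-values in limma lay between 0.89 and 0.997. The median difference was -0.027, with 22 genes lower and 13 higher in *Tnrc6a* null lungs, against a median of 0.00 over all 19938 genes and of -0.03 over the 14024 genes within the signal range of the members. The differences ran from -0.25 for *Bbs4* to 0.11 for *Ift172*, and 25 of the 35 lay within 0.1 of 0. Standard errors ran from 0.073 to 0.168, and 23 differences were no larger than their own standard error. The 95% interval was within 0.5 of 0 on either side in 34 genes, the exception being *Bbs4*, whose interval reached -0.55. The sign of the median rested on 1 lung, since it was 0.012 without *Tnrc6a* null replicate 3, with 17 genes lower and 18 higher, and -0.015 without that lung and WT replicate 1.

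**Figure D1:**
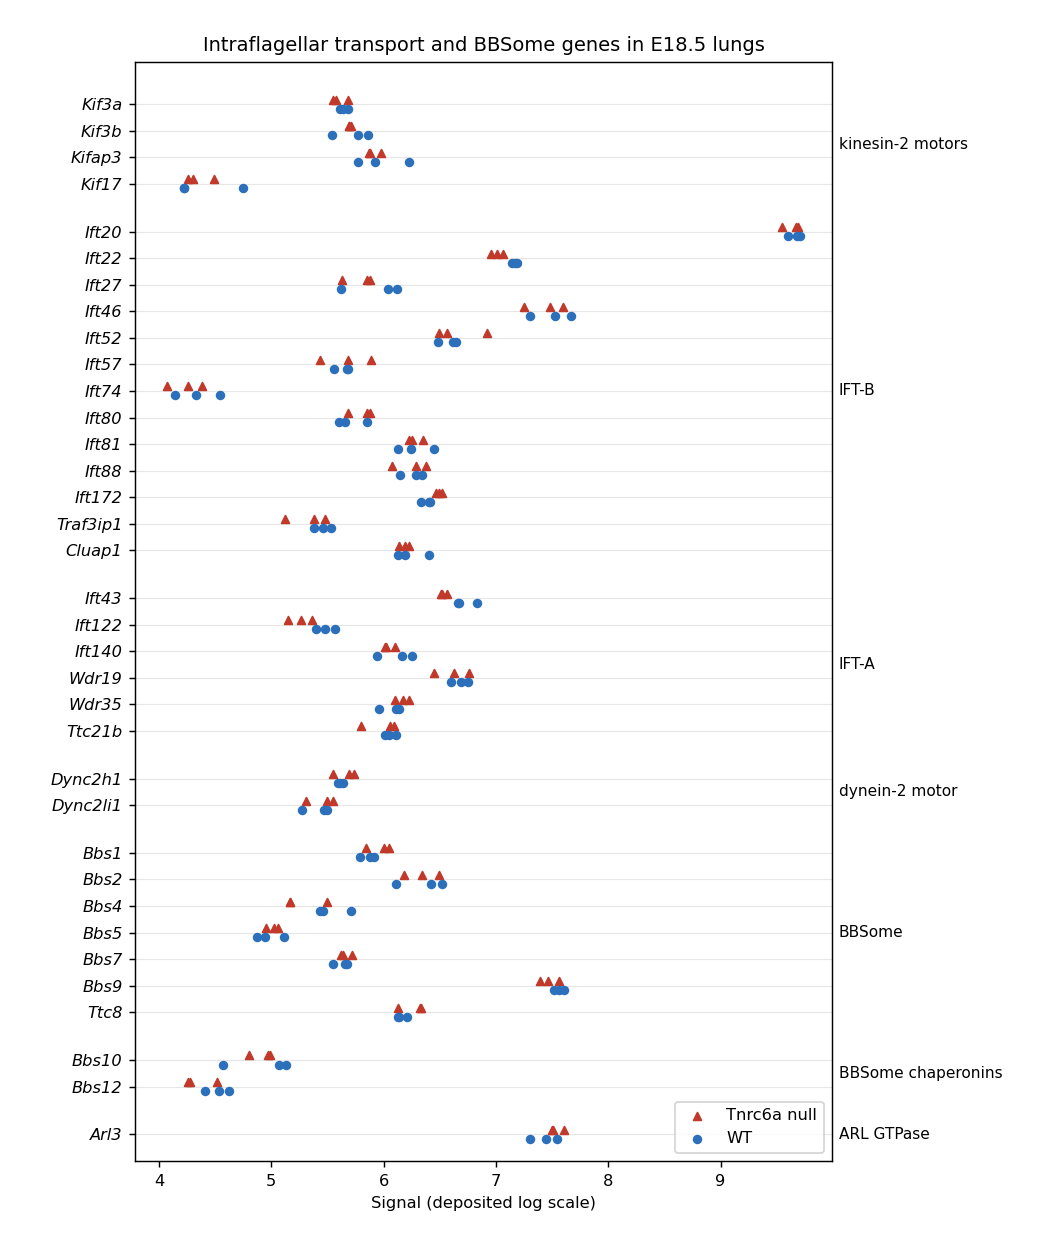
Signal of each of the 35 genes (horizontal axis, deposited log scale) in each lung, with *Tnrc6a* null lungs as triangles above and WT lungs as circles below, grouped by complex. The triangles and circles of a gene overlap in all rows except *Ift22*, *Ift43*, *Ift122* and *Ift172*.

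At an unadjusted p under 0.05, 1 member was lower in *Tnrc6a* null lungs (*Ift43*) and 0 were higher, beside 2.96% and 2.46% of all genes. Genotypes did not overlap in 3 members that were lower (*Ift22*, *Ift43* and *Ift122*) and in 1 that was higher (*Ift172*), beside 5.51% and 4.67% of all genes. The members' counts were thus close to the shares seen over all genes. Without *Tnrc6a* null replicate 3 and WT replicate 1, an alternative chosen after the data were seen, 2 members were lower at an unadjusted p under 0.05 (*Ift22* and *Ift27*) and 2 were higher (*Ift80* and *Arl3*), in a setting in which 14.5% of all genes passed in either direction. The groups of that setting did not overlap in 8 members that were lower and 7 that were higher, beside 25.3% and 18.2% of all genes.

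**Figure D2:**
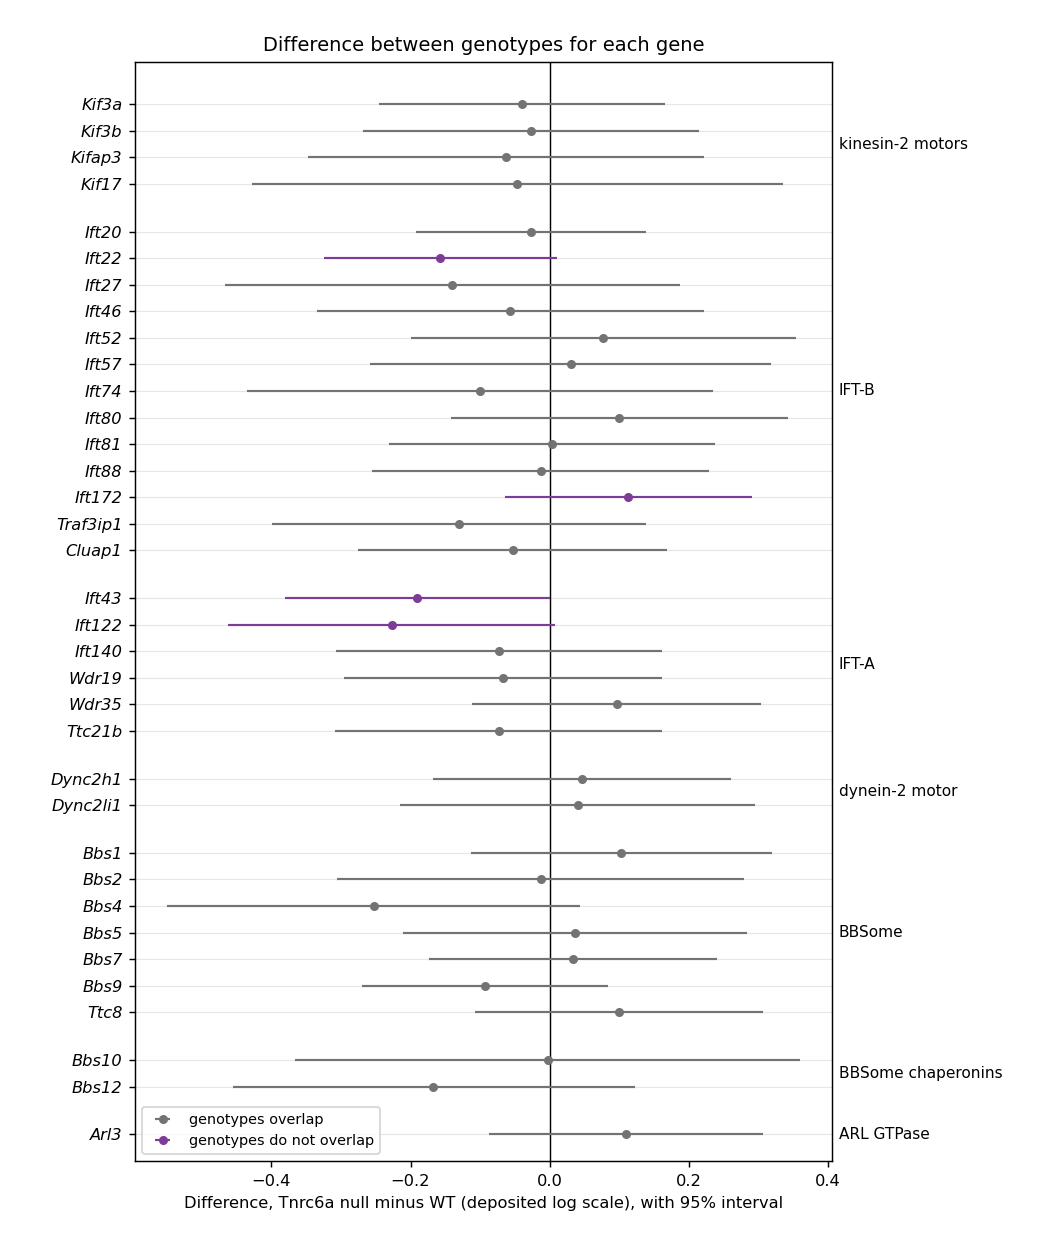
Difference between *Tnrc6a* null and WT lungs for each gene (horizontal axis, deposited log scale; positive where higher in *Tnrc6a* null), with its 95% interval from limma, and purple for the 4 genes whose genotypes did not overlap. All intervals cross 0 except that of *Ift43*, whose upper bound rounds to 0.00.

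The kinesin-2 motors, which drive trains towards the ciliary tip, had the narrowest range of differences among the complexes with 4 or more genes. All 4 were slightly lower, from -0.063 to -0.027, and each difference was smaller than its standard error. Their median of -0.043 depended on the WT lungs, being 0.01 without replicate 3, -0.087 without replicate 1 and -0.088 without replicate 2, and it was -0.103 without both lungs that stood apart. *Kifap3*, the adaptor subunit that links the heterotrimeric motor to cargo, had signals of 5.87, 5.98 and 5.88 in *Tnrc6a* null lungs and 6.23, 5.77 and 5.92 in WT lungs. The null lungs lay within the span of the WT lungs, with a difference of -0.063 ± 0.125 (SE). *Kif3a*, a motor subunit needed for ciliogenesis, was the steadiest of all members, with signals between 5.55 and 5.68 in *Tnrc6a* null lungs and between 5.61 and 5.68 in WT lungs. Its partner *Kif3b* ran from 5.69 to 5.71 in *Tnrc6a* null lungs, inside the WT range of 5.54 to 5.86. *Kif17*, which forms a separate homodimeric kinesin-2, had the largest standard error of the members, 0.168, around a difference of -0.047.

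Of the 13 IFT-B genes, 8 were lower and 5 higher in *Tnrc6a* null lungs, with a median of -0.027. The sign of this median turned with the lungs used, since it was 0.017 without *Tnrc6a* null replicate 3, 0.002 without WT replicate 1 and 0.02 without both, against -0.075 without *Tnrc6a* null replicate 2. *Ift22*, a Rab-like small GTPase of the train, had signals of 7.06, 6.96 and 7.01 in *Tnrc6a* null lungs, against 7.14, 7.19 and 7.17 in WT lungs. All null lungs were below all WT lungs, with means of 7.01 ± 0.05 and 7.17 ± 0.03 (SD, n = 3 each). The difference was -0.157 ± 0.074 (SE), with a 95% interval of -0.324 to 0.011 and an adjusted p of 0.89 in limma. *Ift172*, a large subunit of the peripheral part of the complex, was placed the other way, with 6.47, 6.52 and 6.49 in *Tnrc6a* null lungs and 6.41, 6.40 and 6.33 in WT lungs. The lowest null lung stood only just above the highest WT lung, and the difference was 0.113 ± 0.078 (SE), with an interval of -0.064 to 0.291 and an adjusted p of 0.897 in limma. *Ift20*, which also acts at the Golgi in sorting membrane proteins to the cilium, had 9.69, 9.67 and 9.55 in *Tnrc6a* null lungs and 9.60, 9.68 and 9.71 in WT lungs, so that the genotypes overlapped around nearly equal means.

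The core subunits *Ift88*, *Ift52* and *Ift46*, on which assembly of the complex depends, differed by -0.013, 0.077 and -0.057, each less than its standard error. *Ift52* was highest in *Tnrc6a* null replicate 3, at 6.92, while the other null lungs were at 6.56 and 6.49, within or near the WT range of 6.48 to 6.64. *Ift74* and *Ift81*, which together bind tubulin, differed by -0.10 and 0.003. *Ift27*, another Rab-like GTPase, spread more widely, with 5.85, 5.88 and 5.63 in *Tnrc6a* null lungs and 5.62, 6.12 and 6.04 in WT lungs, and the lowest value of each genotype was in a lung that stood apart. Without those lungs its null values were both below its WT values. The peripheral subunits *Ift57*, *Ift80*, *Traf3ip1* (IFT54) and *Cluap1* (IFT38) differed by 0.03, 0.10, -0.13 and -0.053, and the 95% interval of each included 0.

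IFT-A returns trains to the cell body and brings membrane proteins into the cilium. It contained 2 of the 4 members without overlap and the sole one at an unadjusted p under 0.05. These genes were lower in *Tnrc6a* null lungs, as were 5.51% and 2.96% of all genes by the same measures. Of the 6 IFT-A genes 5 were lower in *Tnrc6a* null lungs and 1 (*Wdr35*) was higher, with a median of -0.073. *Ift43*, a small subunit of the peripheral part, had signals of 6.51, 6.52 and 6.56 in *Tnrc6a* null lungs, against 6.83, 6.66 and 6.67 in WT lungs. The null lungs were tightly grouped at 6.53 ± 0.03 and all lay below the WT lungs at 6.72 ± 0.10 (SD, n = 3 each), with WT replicate 1 the highest of all. The difference was -0.19 ± 0.083 (SE), and its adjusted p was 0.89 in limma. Its unadjusted p of 0.0499 in limma lay at the threshold, and it did not pass in any of the 6 fits that left out 1 lung. *Ift122*, a core subunit required for IFT-A assembly, had 5.26, 5.15 and 5.36 in *Tnrc6a* null lungs and 5.57, 5.40 and 5.48 in WT lungs. No null lung reached a WT lung, and the difference of -0.227 ± 0.103 (SE) had an interval of -0.462 to 0.008 and an adjusted p of 0.89 in limma.

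**Figure D3:**
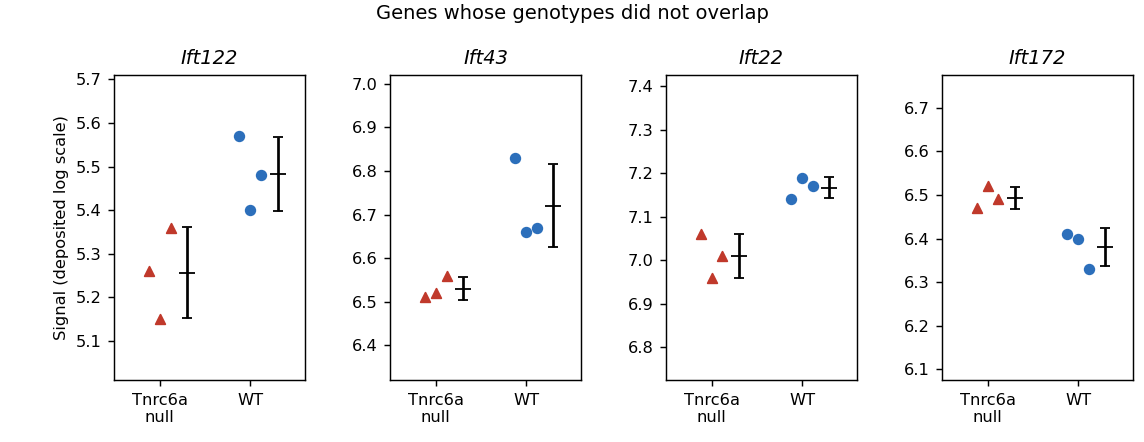
Signals (vertical axis, deposited log scale, the same span of 0.7 in each panel) of the 4 genes whose genotypes did not overlap, with *Tnrc6a* null lungs as triangles on the left and WT lungs as circles on the right of each panel, and black marks for mean ± SD (n = 3). *Ift122*, *Ift43* and *Ift22* were lower in all null lungs and *Ift172* was higher, and none was called after adjustment.

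The other IFT-A genes overlapped between genotypes. *Wdr19* (IFT144), a core subunit, had 6.63, 6.76 and 6.45 in *Tnrc6a* null lungs and 6.60, 6.75 and 6.69 in WT lungs, with *Tnrc6a* null replicate 3 the lowest of all and a difference of -0.067. *Ift140*, also of the core, and *Ttc21b* (IFT139), of the periphery, both differed by -0.073, and *Wdr35* (IFT121) by 0.097. Averaged over the 6 genes, *Tnrc6a* null lungs deviated from the mean of all lungs by -0.027, -0.012 and -0.095. WT lungs deviated by 0.008, 0.07 and 0.055, so that every null lung was below every WT lung. The same order was seen for marker genes of endothelium and of mesenchyme, and for genes of ARL effectors and lipid-modified cargo. The median of IFT-A stayed below 0 on leaving out any 1 lung, but its size depended on the lung. It was -0.023 without *Tnrc6a* null replicate 3, -0.039 without WT replicate 2, -0.121 without WT replicate 1 and -0.133 without *Tnrc6a* null replicate 2, and -0.088 without both lungs that stood apart.

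The 2 dynein-2 members, subunits of the motor of the return journey, were both slightly higher, with a median of 0.043. This direction rested on single lungs, the median being -0.001 without *Tnrc6a* null replicate 2, 0.002 without WT replicate 3, 0.107 without *Tnrc6a* null replicate 3 and 0.128 without both lungs that stood apart. *Dync2h1*, the heavy chain, had 5.69, 5.74 and 5.55 in *Tnrc6a* null lungs and 5.61, 5.64 and 5.59 in WT lungs, a difference of 0.047 ± 0.094 (SE). The null lungs lay on both sides of the WT lungs. *Dync2li1*, the light intermediate chain, differed by 0.04 ± 0.112 (SE).

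The 7 BBSome subunits were divided, 3 being lower and 4 higher, with a median of 0.033. The median was -0.005 without WT replicate 3 or without both lungs that stood apart, 0.003 without *Tnrc6a* null replicate 1, 0.072 without WT replicate 2 and -0.003 after median centring, so that it had no settled sign. *Bbs4*, which also associates with centriolar satellites, had the largest difference of all members and an X-box match just after its start. Its signals were 5.50, 5.17 and 5.17 in *Tnrc6a* null lungs and 5.43, 5.71 and 5.46 in WT lungs. The genotypes overlapped because *Tnrc6a* null replicate 1 exceeded 2 of the WT lungs, and the difference of -0.253 ± 0.13 (SE) had an interval of -0.55 to 0.043 and an adjusted p of 0.89 in limma. *Bbs9*, a core subunit, had 7.46, 7.56 and 7.39 in *Tnrc6a* null lungs and 7.52, 7.61 and 7.56 in WT lungs, with a difference of -0.093 ± 0.078 (SE). *Bbs1*, which binds the GTPase that recruits the BBSome to membranes, and *Ttc8* (BBS8) were higher by 0.103 and 0.10, about as much as their standard errors of 0.095 and 0.091. *Bbs2* and *Bbs7*, of the core, and *Bbs5*, which binds phosphoinositides, differed by -0.013, 0.033 and 0.037.

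Assembly of the BBSome needs the chaperonin-like proteins *Bbs10* and *Bbs12*. *Bbs10* had the widest spread of all members, with 4.97, 4.80 and 4.99 in *Tnrc6a* null lungs and 4.57, 5.07 and 5.13 in WT lungs. Its difference was -0.003 ± 0.16 (SE), the WT lungs spanning the null lungs on both sides. *Bbs12* had 4.28, 4.52 and 4.26 in *Tnrc6a* null lungs and 4.62, 4.41 and 4.53 in WT lungs, a difference of -0.167 ± 0.127 (SE) with overlap. *Arl3*, the GTPase that frees lipidated proteins from their carriers inside the cilium, had 7.61, 7.51 and 7.50 in *Tnrc6a* null lungs and 7.54, 7.30 and 7.45 in WT lungs. Only the highest WT lung, replicate 1, overlapped with the null lungs, and the difference was 0.11 ± 0.086 (SE), with an interval of -0.087 to 0.307.

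Members with and without an X-box match were also set side by side. Among the 7 with a match, 3 were lower and 4 higher in *Tnrc6a* null lungs, with a median difference of 0.03, and among the 24 without one 18 were lower and 6 higher, with a median of -0.046. This split is a description and was not tested.

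The lowest null lung of a member was most often *Tnrc6a* null replicate 3, as it was over all genes. This lung was the lowest null lung in 19 of the 35 members, against 8 each for replicates 1 and 2, and in 43.9% of all genes. Among WT lungs, replicate 1 was the lowest in 18 of the 35 members and in 58.6% of all genes. Averaged over the members, *Tnrc6a* null lungs deviated from the mean of the 6 lungs by 0.011, 0.006 and -0.066, and WT lungs by -0.009, 0.038 and 0.019. Proliferation genes were on average highest in *Tnrc6a* null replicate 3. The mean deviation of the 7 measured was 0.175, -0.155 and 0.427 in *Tnrc6a* null lungs and 0.275, -0.338 and -0.385 in WT lungs, so that the lungs that stood apart were the highest of their groups, and all 7 genes were higher on average in *Tnrc6a* null lungs, with a median of 0.303. The part of proliferation in the members' values was not tested.

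MCC markers had a median difference of -0.06, against -0.027 for the members. Of 14, 10 were lower and 4 higher. Genotypes did not overlap in 3 that were lower and 0 that were higher, beside 5.51% and 4.67% of all genes. The mean deviation was 0.022, -0.016 and -0.094 in *Tnrc6a* null lungs and 0.016, -0.009 and 0.081 in WT lungs. *Foxj1*, the transcription factor of motile ciliogenesis, differed by -0.063. *Rsph1*, a radial spoke protein, had the largest difference of these markers at -0.457. Its unadjusted p was 0.0018 and its adjusted p 0.89, both in limma. All measured markers were lower on average for alveolar type 1 cells (6 of 6, median -0.263), club and secretory cells (4 of 4, -0.218), macrophages (4 of 4, -0.215), endothelium (5 of 5, -0.123) and cardiomyocytes (4 of 4, -0.103), and 5 of 6 were lower for mesenchyme (-0.145). Alveolar type 2 markers had a median of 0.01, and all 9967 genes above the median signal had a median of -0.047. None of these markers was called, and their part in the members' values was not tested. In whole lung, fewer cells of a type and less RNA per cell cannot be told apart.

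**Figure D4:**
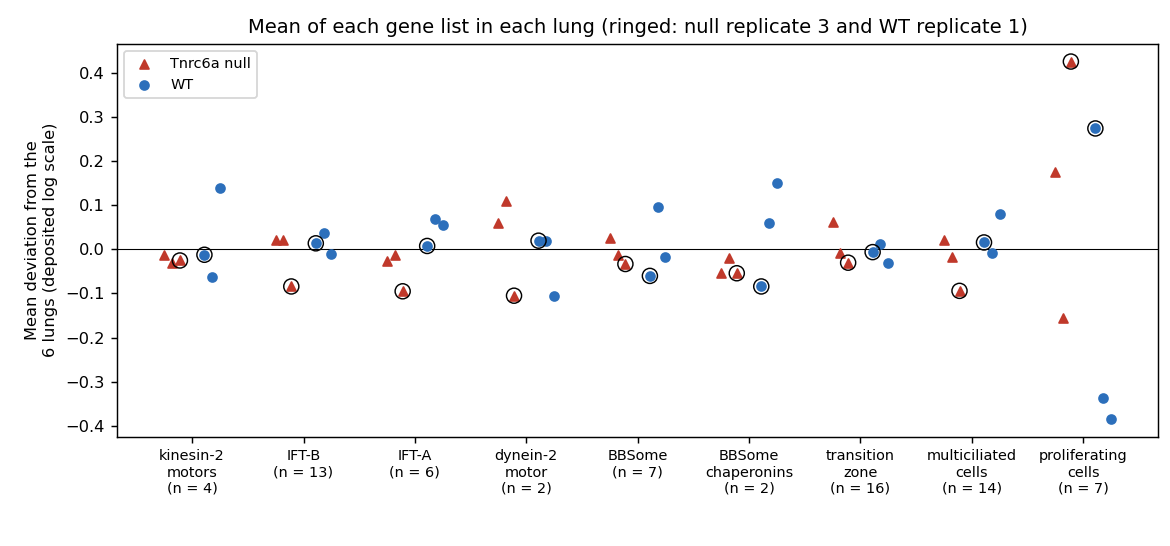
Mean deviation of each gene list from the average of the 6 lungs (vertical axis, deposited log scale) in each *Tnrc6a* null lung (triangles) and WT lung (circles), with rings around *Tnrc6a* null replicate 3 and WT replicate 1. The IFT and BBSome lists run from -0.105 (dynein-2) to 0.151 (BBSome chaperonins), whereas the proliferation genes run from -0.385 to 0.427.

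Other genes of the pathway were examined from a list of 49, of which 45 were measured. None was called, 24 were lower and 19 higher, and the median was -0.01. At an unadjusted p under 0.05, 3 were lower and 1 was higher, beside 2.96% and 2.46% of all genes. Genotypes did not overlap in 5 that were lower and 2 that were higher, beside 5.51% and 4.67% of all genes. *Tulp3*, the adaptor by which IFT-A carries receptors into the cilium, had 7.04, 7.04 and 6.82 in *Tnrc6a* null lungs and 7.07, 7.36 and 7.23 in WT lungs. *Inpp5e*, the phosphoinositide phosphatase of the ciliary membrane and a lipidated cargo that ARL3 releases, had 6.51, 6.51 and 6.39 in *Tnrc6a* null lungs and 6.62, 6.86 and 6.76 in WT lungs. In both genes all null lungs were below all WT lungs, with differences of -0.253 ± 0.103 and -0.277 ± 0.092 (SE) and an adjusted p of 0.89 in limma.

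The gate at the base of the cilium, the transition zone, held the genes with the largest differences of the pathway list, in opposite directions. *Tmem237* had 5.44, 5.12 and 5.35 in *Tnrc6a* null lungs and 5.71, 5.52 and 5.61 in WT lungs, a difference of -0.31 ± 0.115 (SE). *Tmem107*, which like *Tmem237* encodes a membrane protein of this gate, had 5.35, 5.24 and 5.15 in *Tnrc6a* null lungs and 4.87, 5.04 and 4.65 in WT lungs, a difference of 0.393 ± 0.127 (SE). Neither overlapped between genotypes, and both had an adjusted p of 0.89 in limma. Over the 16 measured transition zone genes 6 were lower and 9 higher, with a median of 0.022. An X-box match was present in 13 of the 15 of these genes with a promoter sequence (86.7%), and those of this oppositely placed pair are shown on the next lines, again with the match in capitals.
Tmem237: tagtcagcGTTGCCATGGCGACgcctccgg
Tmem107: cggacgcaGTTACCATGGCAGCcgggcggc

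These sequences lie at chr1:59120102-59120131 on the minus strand for *Tmem237* and at chr11:69070789-69070818 on the plus strand for *Tmem107*. The matches began 27 and 12 bases before the start and had 1 mismatch each.

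The remaining dynein-2 subunits and light chains were mostly higher, 6 of 7, with a median of 0.143 and a range of -0.077 for *Dynll2* to 0.24 for *Dynlrb2*, and 0 of the 7 passed an unadjusted p under 0.05. Several of these light chains are shared with cytoplasmic dynein. *Dynlrb2* averaged 5.82 ± 0.14 in *Tnrc6a* null lungs and 5.58 ± 0.25 in WT lungs (SD, n = 3 each), with a 95% interval of -0.08 to 0.56 for its difference.

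**Figure D5:**
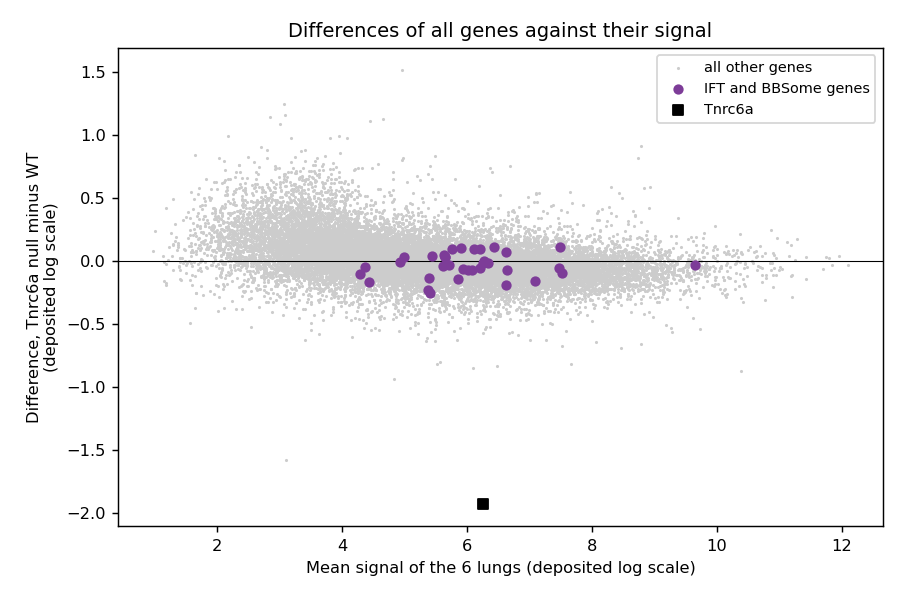
Difference between *Tnrc6a* null and WT lungs (vertical axis, deposited log scale; positive where higher in *Tnrc6a* null) against mean signal of the 6 lungs (horizontal axis) for all genes in grey, the 35 IFT and BBSome genes in purple and *Tnrc6a* as a black square. The purple points lie between -0.253 and 0.113, inside the cloud of all genes, and *Tnrc6a* lies at -1.93.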

How the data were processed

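The authors deposited 1 value for each of 35045 probe sets and lung on a scale that the labels call log2. MAS5 is the tool named in the submitters' processing notes. Its version and settings, and whether a further normalization followed, are left unstated by the sources used here. No detection calls or scanner data were used, so dim genes were kept, and the number of arrays limits the precision. Values were used as deposited, with array medians between 4.98 and 5.03.

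Of the probe sets, 21789 had 1 gene symbol, 1621 several and 11635 none, and 21698 were brought to the symbols of a GRCm38.p6 annotation by Entrez ID. The brightest probe set stood for a gene. A linear model was fitted to all 19938 genes in limma 3.58.1 (R 4.3.3), with the spread moderated by eBayes as a trend on signal. P-values for the *Tnrc6a* null minus WT contrast were adjusted over all genes by the Benjamini-Hochberg method, and an adjusted p under 0.05 was called. The procedure was tested on simulated data. X-box and forkhead matches were sought in RefSeq promoter sequences with Python 3.11.15, pandas 2.3.3 and numpy 2.4.6, and plots were drawn with matplotlib 3.10.9.

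The members, gene lists and tests were chosen with earlier results of these data known. By rule, all members were named, with the value in every lung for those at an unadjusted p under 0.05, those without overlap between genotypes and, in each complex, the brightest and the one with the smallest p. Other pathway genes were named at an unadjusted p under 0.05. Values of *Ift27*, *Ift52* and the remaining members, and of *Dynll2*, *Dynlrb2*, *Sftpc*, *Foxj1* and *Rsph1*, were added after they were seen. *Ift70a2*, *Dynlt1b* and *Bbip1* of the pathway list were not analysed here. The alternatives were other scalings, filters, summaries of probe sets, moderation, array weights, the methods' t-test, a replicate block and leaving out each lung.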

Additional observations from a re-analysis of the deposited data

How the results depend on the processing

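The count of members called was 0 under every alternative tried. Their median difference, recomputed under other scalings, filters and summaries of probe sets and without lungs, moved by less than the spread between lungs. Counts at an unadjusted p under 0.05 were small and moved with the setting. Against 1 member lower and 0 higher, median centring gave 3 lower (6.92% of all genes passed in either direction) and array weights 4 lower (12.3% of all genes). Fits by eBayes without a trend and by robust eBayes gave 0 lower (4.89% and 5.4% of all genes). The methods' t-test gave 3 lower and 1 higher (5.53% of all genes), with 0 of all genes left after Benjamini-Hochberg adjustment. For the other pathway genes, with 1 higher (*Tmem107*), the count was 2 with array weights, when 12.3% of all genes passed in either direction. Among genes above the median signal the count was 0, since *Tmem107* was below that filter and has no value there. Of the genes above it, 6.86% passed in either direction. Members without overlap that were higher were 2 after quantile normalization, beside 3.92% of all genes, against 1 beside 4.67%.

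Leaving out each lung in turn gave 0 to 1 members lower (*Bbs4*, *Ift122* or *Ift27*, never *Ift43*), 1 to 3 other pathway genes lower and 0 to 2 higher at an unadjusted p under 0.05. In these fits 3.08% to 8.68% of all genes passed in either direction. Leaving out a lung gave 3 to 7 members without overlap that were lower and 2 to 3 that were higher. Over all genes, 7.19% to 18.2% did not overlap and were lower, and 8.04% to 13.9% were higher. The most members did so without WT replicate 1, when 18.2% and 8.45% of all genes did not overlap in those directions. With replicate numbers as a block, 0 members were lower at an unadjusted p under 0.05, and 4.12% of all genes passed in either direction. Deviations of same-numbered lungs correlated at -0.295, 0.361 and -0.162 over all genes. These values cannot decide whether the numbers pair the lungs, since the 2 lungs that stood apart carry different numbers. The labels do not say either.

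Alternatives chosen after the data were seen concerned *Tnrc6a* null replicate 3 and WT replicate 1. Without them, 2 members were lower, 2 members higher and 2 other pathway genes higher at an unadjusted p under 0.05, and 8 and 7 members without overlap were lower and higher. In that setting 14.5% of all genes passed in either direction, and 25.3% and 18.2% without overlap were lower and higher. With these lungs as a block, 3 members were lower, and 5 and 3 other pathway genes were lower and higher, while 14.9% of all genes passed in either direction. The cause of these moves was not tested. These alternatives called 23 and 56 of all genes after adjustment, none of them a member or another pathway gene.

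*Ift22*, *Ift43*, *Ift122* and *Ift172* kept their direction under every alternative run, from -0.193 to -0.119, -0.227 to -0.135, -0.278 to -0.173 and 0.077 to 0.138, with adjusted p-values from 0.222 to 0.999 by limma or the methods' t-test. *Ift122* was below the filter on median signal and has no value there.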
